A study of Mus musculus with 18 samples.

Results

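The genes described here are 39 genes of the type I interferon response. They comprise the 2 subunits of the interferon receptor, 3 transcription factors of the pathway, 5 sensors of nucleic acid, and 4 genes grouped as ISG15 system and ligases. The others are 5 of the OAS family, 4 of the IFIT family, 10 antiviral effectors and 6 other induced genes. All 39 were chosen by name and found among the 54532 genes of the count table. The rule used no measured values, but the genes were chosen with earlier results of these data known. RNA was sequenced from retinas of rd1 mice on the FVB background at postnatal day 30, a line whose Pde6b mutation is carried by every group and leads to the loss of rods and then cones. All mice received subretinal AAV8-GFP, a virus that delivers green fluorescent protein, either alone (GFP retinas) or with AAV8-TGFB1, which delivers the cytokine transforming growth factor beta 1 (TGFB1 retinas). The sources used here do not give the promoters of the transgenes, and whether each library came from its own animal is not stated. Retinal cells were sorted by antibody into microglia (7 GFP and 7 TGFB1 libraries, replicates numbered 2 to 8) and non-microglia (2 GFP and 2 TGFB1 libraries), and Smart-Seq2 libraries were made from each fraction.

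Type I interferons are cytokines released by cells that detect foreign or misplaced nucleic acid. They bind the receptor formed by Ifnar1 and Ifnar2, and the signal passes through Stat2 and Irf9 to a DNA element, the interferon-stimulated response element (ISRE), in front of the induced genes. Microglia, the resident macrophages of the retina, can turn on this programme during degeneration, and TGF-beta is known to hold microglia in a homeostatic state. The comparison of the 2 treatments in microglia is the one named in the title of the study.

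Libraries held 1582451 to 3064027 counts, and levels are given as CPM, the count of a gene per 1000000 counts after TMM scaling. A floor of 3 counts was worth 0.873 to 2.10 CPM, depending on the library. The 39 genes together took 0.0887% to 0.132% of the counts of a microglia library and 0.0687% to 0.0724% of a non-microglia library. The sort was checked with 8 microglial markers, which summed to between 34814 and 43537 CPM in microglia and between 57.3 and 69.0 CPM in non-microglia. Tgfb1 had no count in the GFP non-microglia and was at 129 and 149 CPM in the TGFB1 non-microglia, while in microglia it lay at 8.66 to 15.9 CPM in GFP and 9.09 to 25.5 CPM in TGFB1 retinas. Xist counts exceeded the summed counts of Y-linked genes in replicates 2, 7 and 8 of both microglia groups. They did not in the other 12 libraries, which include every non-microglia library. Below, the former are called libraries with Xist RNA and the latter libraries with Y-linked RNA. Replicates 2 and 7 of both microglia groups stood apart in the number of genes with a count, at 24579 to 26333 against 19947 to 22892 in the other 10 microglia libraries. Results that rest on them are given with and without them, a choice made after seeing the data.

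The DNA element of the pathway was looked for in front of the genes. RefSeq windows of 300 bases on GRCm38.p6, from 250 bases before to 50 bases from the annotated start, were matched for 28 of the 39 genes. The ISRE core, written here as GAAANNGAA or its reverse complement TTCNNTTTC, was present in the windows of 16 of these 28 genes (57.1%), against 9.76% of the 27025 genes in the table. Of the 16, 10 held 2 or more matches, and 23 of the 30 matches lay within 200 bases before the start. Both strands were searched, matches may overlap each other, and a match is a run of letters and not a measured binding site. The windows of 6 genes follow, 5′ to 3′ on the strand of the gene, with the ISRE core in capitals. Isg15 (chr4:156200769-156201068, minus strand) shows overlapping cores in tandem. Ddx58 (chr4:40239776-40240075, minus strand) has the smallest p of the interferon response genes tested in the treatment comparison of microglia. Rsad2 (chr12:26456403-26456702, minus strand) and Cmpk2 (chr12:26468965-26469264, plus strand) are neighbours on opposite strands whose values are set side by side below, and the Cmpk2 window holds no core. Ifit3 (chr19:34583279-34583578, plus strand) and Ifit3b (chr19:34607707-34608006, plus strand) share much of their sequence, in the window and in the transcript.
Isg15: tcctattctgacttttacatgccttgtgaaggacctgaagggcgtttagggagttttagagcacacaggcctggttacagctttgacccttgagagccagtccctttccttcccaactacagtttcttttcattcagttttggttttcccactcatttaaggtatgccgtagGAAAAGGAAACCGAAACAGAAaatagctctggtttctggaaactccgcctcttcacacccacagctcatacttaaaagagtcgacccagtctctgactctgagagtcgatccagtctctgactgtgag
Ddx58: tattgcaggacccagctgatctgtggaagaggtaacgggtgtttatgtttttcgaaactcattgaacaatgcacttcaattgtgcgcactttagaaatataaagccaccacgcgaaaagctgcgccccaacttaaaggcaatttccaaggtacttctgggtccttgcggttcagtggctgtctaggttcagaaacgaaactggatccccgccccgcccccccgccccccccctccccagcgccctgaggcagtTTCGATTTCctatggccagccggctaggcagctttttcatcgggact
Rsad2: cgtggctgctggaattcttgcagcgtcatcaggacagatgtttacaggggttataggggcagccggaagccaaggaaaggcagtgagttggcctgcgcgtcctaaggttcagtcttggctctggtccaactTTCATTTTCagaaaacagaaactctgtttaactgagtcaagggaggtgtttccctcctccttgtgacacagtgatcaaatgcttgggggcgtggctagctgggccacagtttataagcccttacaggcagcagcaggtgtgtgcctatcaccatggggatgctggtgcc
Cmpk2: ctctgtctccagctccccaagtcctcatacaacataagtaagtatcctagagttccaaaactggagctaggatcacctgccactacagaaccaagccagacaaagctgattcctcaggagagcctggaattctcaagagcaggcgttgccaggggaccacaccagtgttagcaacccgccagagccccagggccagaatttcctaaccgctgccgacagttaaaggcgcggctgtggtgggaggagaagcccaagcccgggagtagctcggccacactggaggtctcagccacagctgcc
Ifit3: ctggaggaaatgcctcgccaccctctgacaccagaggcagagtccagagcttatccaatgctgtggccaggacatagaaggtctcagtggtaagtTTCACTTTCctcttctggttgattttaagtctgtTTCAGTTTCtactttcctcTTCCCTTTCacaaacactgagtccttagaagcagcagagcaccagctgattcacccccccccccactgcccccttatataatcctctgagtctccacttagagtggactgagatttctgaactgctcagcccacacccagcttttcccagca
Ifit3b: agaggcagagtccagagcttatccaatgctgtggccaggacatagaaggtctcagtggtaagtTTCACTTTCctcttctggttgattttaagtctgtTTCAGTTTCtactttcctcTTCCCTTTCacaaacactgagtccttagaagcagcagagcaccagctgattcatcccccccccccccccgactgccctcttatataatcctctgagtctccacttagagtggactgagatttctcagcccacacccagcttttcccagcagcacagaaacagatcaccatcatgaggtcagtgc
The Ifit3 and Ifit3b windows share an identical run of 169 bases that holds all 3 cores of each. The cores lie 32 bases farther from the annotated start in Ifit3b.

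**Figure D1:**
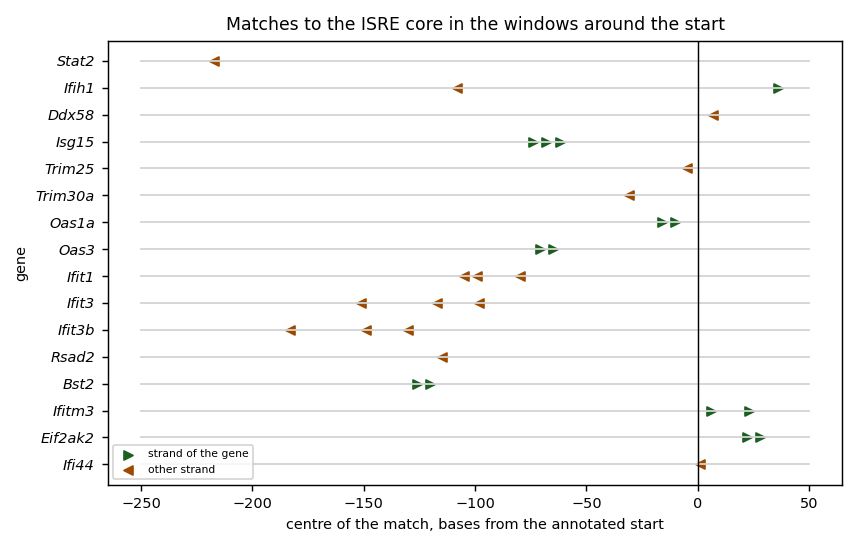
Positions of the ISRE core in the windows of the 16 genes that hold it, as distance in bases from the annotated start (0), with triangles for matches on the strand of the gene or on the other strand. All matches of Isg15, Ifit1, Ifit3, Ifit3b, Bst2, Oas3, Rsad2 and Stat2 lie 66 or more bases before the start, and those of Eif2ak2, Ifitm3 and Ddx58 after it.

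Levels were first ranked within each group. In microglia of GFP retinas the highest levels per kilobase of exon were those of Ifi27l2a, a small hydrophobic interferon-induced protein gene (87.6 ± 8.49 CPM per kilobase, SD, n = 7), of Ifnar2 (73.7 ± 6.16) and of Ifi35 (30.7 ± 3.68), whose product binds other interferon-induced proteins. In TGFB1 microglia Ifi27l2a was at 119 ± 36.0, Ifnar2 at 79.1 ± 8.31 and Ifitm3, which blocks the entry of viruses at endosomal membranes, at 32.3 ± 10.6 CPM per kilobase (n = 7). From the third place on, the neighbours in this order (Ifi35, Ifi27, Ifitm3 and Bst2 in GFP microglia) did not differ beyond their spread. In non-microglia Ifitm3 came first, at 60.8 ± 8.06 in GFP and 56.1 ± 13.3 CPM per kilobase in TGFB1 retinas (n = 2 each). It was followed by Ifi35, at 24.8 ± 2.31 and 26.4 ± 0.466, and by Ifnar1, at 16.2 ± 2.17 and 16.4 ± 1.88 CPM per kilobase. Isg15, a ubiquitin-like modifier that is among the most inducible genes of the pathway, had 4.599 to 7.25 CPM per kilobase as group means, and Rsad2, Oas3 and Ifi44 were below 1 in all 4 groups.

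The fractions were then compared gene by gene. Of the 37 genes tested in the fit of all 18 libraries, 18 were higher and 4 lower in microglia of GFP retinas, and 20 were higher and 4 lower in TGFB1 retinas (edgeR quasi-likelihood test, Benjamini-Hochberg). Among all 15321 genes tested, 29.9% were called higher and 34.2% lower in microglia of GFP retinas, and 30.8% higher and 34.4% lower in TGFB1 retinas. In both treatments 17 of the genes were higher and 3 lower. The 2 contrasts share no library but come from 1 fit. Only 24 of the 37 genes pass the filter in the non-microglia libraries alone. The others entered this fit through counts in microglia, so a higher level there was largely set by the filter. Of the 17, these are Bst2, Ifi27l2a, Mx1, Mx2, Oas1a, Rtp4, Slfn2, Trim30a and Zbp1. The counts and medians given here include them. The median log2 fold change of the 37 genes was 0.72 in GFP and 1.19 in TGFB1 retinas, against -0.06 and -0.04 for all genes, and the gene at the median was Irf7 in both. Other scalings moved the median of all genes by -0.12. Cell types mixed in the non-microglia fraction were not separated, and fewer cells of a type and less RNA per cell cannot be told apart.

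Both receptor subunits were higher in microglia. Ifnar2 had 210.1 to 277 CPM (median 245) in GFP microglia and 42.7 and 47.1 CPM in the corresponding non-microglia, with no overlap (log2 fold change 2.44, SE 0.13, adjusted p = 3.42e-14). The TGFB1 retinas gave 2.50 (SE 0.13, adjusted p = 2.33e-14). Ifnar1 was nearer to even, at 111 to 139.9 CPM in GFP microglia against 87.4 and 106 CPM (log2 fold change 0.40, SE 0.12, adjusted p = 0.00392), and the call was lost without GFP non-microglia replicate 2 (0.29, adjusted p = 0.117). In TGFB1 retinas the Ifnar1 difference was 0.60 (SE 0.12, adjusted p = 7.48e-05). Of the transcription factors, Irf9 was higher in microglia in both treatments (log2 fold changes 1.03 and 1.11), as was Stat2 (0.66 and 0.88), though without GFP non-microglia replicate 2 the Stat2 call in GFP retinas was lost (0.47, adjusted p = 0.139). Irf7, the factor that amplifies interferon production, passed in TGFB1 retinas (1.19, SE 0.35, adjusted p = 0.00421) and not in GFP retinas (0.72, SE 0.34, adjusted p = 0.0637), and the difference between the treatments did not pass.

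Several sensors and effectors had few counts outside microglia. Dhx58, the regulator of RNA sensing known as LGP2, had 18.7 to 27.6 CPM in GFP microglia and 1.67 and 3.1995 CPM in the non-microglia (log2 fold change 3.21, SE 0.31, adjusted p = 1.81e-09). Trim30a, a mouse ubiquitin ligase of the TRIM family, had 55.9 to 90.02 CPM against 2.04 and 2.33 CPM (4.93, SE 0.31, adjusted p = 5.71e-13). Bst2, the tether that holds budding virus at the cell surface, had 16.3 to 27.3 CPM against 2.04 and 2.33 CPM (3.32, SE 0.35, adjusted p = 9.98e-09). For the genes with 3 or fewer non-microglia counts over a group, ratios of counts are given in place of fitted values. Oas1a, an oligoadenylate synthetase, had 185 counts in GFP microglia and none in the 2 GFP non-microglia libraries, so it was at least 12.3-fold higher in microglia against the floor of 3 counts per library. Slfn2, a schlafen family gene of immune cells, had 517 counts against 2 in GFP retinas (ratio 104, 95% interval 28.6 to 861, counting error only) and was at least 32.4-fold higher in TGFB1 microglia. Ifi27l2a had 652 counts against 3 in GFP retinas (ratio 87.4, interval 29.8 to 425) and was at least 56.7-fold higher in TGFB1 microglia. The Dhx58, Bst2, Trim30a, Slfn2 and Ifi27l2a levels of the 2 fractions did not overlap in either treatment. Of the 37 genes tested, 17 were higher and 5 lower in GFP microglia without overlap, and 22 and 4 in TGFB1 retinas. These counts include the genes that entered the fit through microglia. Among all 15321 genes tested, 29.1% were higher and 34.3% lower without overlap in GFP retinas, and 30.1% and 34.4% in TGFB1 retinas.

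In GFP retinas 4 genes ran the other way. Cmpk2, the mitochondrial nucleotide kinase encoded beside Rsad2, had 0.372 to 4.79 CPM in GFP microglia and 48.4 and 58.2 CPM in the non-microglia (log2 fold change -4.45, SE 0.51, adjusted p = 3.19e-07), and -3.87 in TGFB1 retinas (SE 0.52, adjusted p = 2.43e-06). Oasl2, an OAS-like gene with ubiquitin-like domains, had 4.31 to 11.6 CPM against 35.2 and 42.4 CPM (-2.35, SE 0.38, adjusted p = 1.40e-05), and -1.42 in TGFB1 retinas (SE 0.37, adjusted p = 0.00199). Ifitm3 was lower in microglia by -1.19 (SE 0.28, adjusted p = 0.000661) and -0.80 (SE 0.28, adjusted p = 0.0162), and the second call was lost without TGFB1 non-microglia replicate 2 (-0.50, adjusted p = 0.278). Rsad2, the radical SAM enzyme viperin, passed in GFP retinas only narrowly (-1.86, SE 0.79, adjusted p = 0.0423). It did not pass with DESeq2 (-2.02, adjusted p = 0.0583), nor in 8 of the 18 fits that left out 1 library (adjusted p up to 0.294), and in TGFB1 retinas it was at 0.86 (adjusted p = 0.438). Ifit3b passed in TGFB1 retinas (-2.14, SE 0.55, adjusted p = 0.00155) and not in GFP retinas (-1.10, adjusted p = 0.0920), and the difference between the treatments did not pass. As markers of other retinal cells, 4 of 5 cone genes and 7 of 8 Mueller glia genes were called lower in GFP microglia than in GFP non-microglia, with log2 fold changes of -5.99 to -6.37 for the 4 cone genes and -2.61 to -6.06 for the 7 Mueller glia genes. The exceptions were Pde6h (-0.285) and Apoe (-0.154), which had similar levels in both fractions and made up most of the summed marker levels of microglia, 138 to 238 CPM for the cone and 4556 to 5722 CPM for the Mueller glia list. The part of RNA from such cells in the microglial level of Cmpk2, Oasl2 and Ifit3b was not tested.

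**Figure D2:**
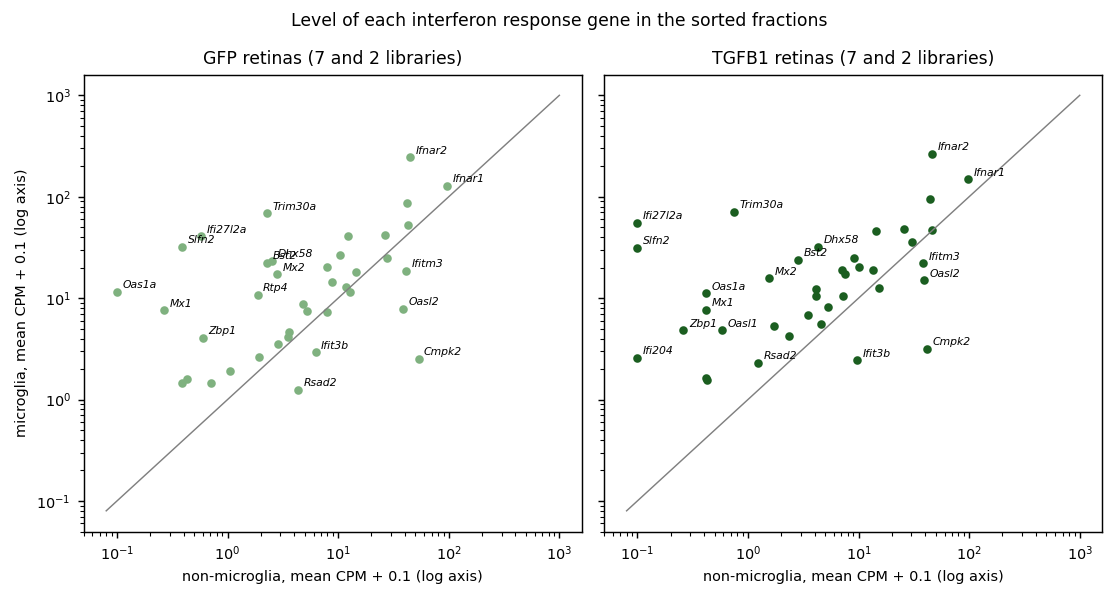
Mean CPM plus 0.1 of each of the 39 genes in non-microglia (x, 2 libraries) and microglia (y, 7 libraries) of GFP and TGFB1 retinas, both on log axes, with the line of equal levels. Trim30a, Slfn2, Oas1a and Ifi27l2a lie far above the line in both panels, and Cmpk2, Oasl2, Ifit3b and Ifitm3 below it.

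The central comparison asked whether delivery of TGFB1 changed the programme in microglia. No gene of the 28 that could be tested passed (edgeR adjusted p from 0.193 to 0.998), where 0.237% of all 10970 genes tested were called higher and 0.0729% lower. DESeq2 and limma voom also called none of them. Of the 28 values, 21 were above 0 and 7 below (75%, against 50.7% above 0 for all genes), and 5 had an unadjusted p under 0.05, all of them higher in TGFB1 microglia (17.9%, against 6.65% of all genes in either direction). The median log2 fold change was 0.16 against 0.00 for all genes. It was 0.03 without TGFB1 replicates 2 and 7 and -0.01 without replicates 2 and 7 of both treatments. These libraries were left out after seeing the data. They often held the highest levels of the genes in TGFB1 microglia and the lowest in GFP microglia (given below). A lower median without them was thus built into the choice and is no separate check. The tested genes are those with enough counts in microglia. The 11 not tested there (Zbp1, Ifi204, Oas2, Oas3, Oasl1, Ifit1, Ifit3b, Isg20, Rsad2, Cmpk2 and Ifi44) had group means of 1.16 to 6.72 CPM. None of the 28 separated the 7 TGFB1 from the 7 GFP libraries without overlap, against 0.191% of all genes with every TGFB1 library higher and 0.0365% with every one lower.

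Of the receptor subunits, Ifnar1 ranged from 111 to 139.9 CPM (median 129) in GFP microglia and from 136 to 164 (median 149) in TGFB1 microglia. All 7 TGFB1 libraries lay above the GFP mean, and the ranges overlapped (log2 fold change 0.21, SE 0.07, adjusted p = 0.411). Ifnar2 ranged from 210.1 to 277 CPM (median 245) and from 224 to 302 CPM (median 269), and 5 of 7 TGFB1 libraries exceeded the GFP mean (0.10, SE 0.07, adjusted p = 0.880). The transcription factors differed by less than their spread. Stat2 had medians of 42.6 CPM in GFP and 45.9 CPM in TGFB1 microglia (0.19, SE 0.13, adjusted p = 0.877), Irf9 85.5 and 96.1 CPM (0.14, SE 0.09, adjusted p = 0.842), and Irf7 15.3 and 14.5 CPM (0.24, SE 0.21, adjusted p = 0.913). For Irf7 the mean was thus higher in TGFB1 microglia and the median lower.

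Of the 28 genes tested, Ddx58 and Dhx58, RNA sensors of the RIG-I family, gave the smallest p values. Ddx58 (ENSMUSG00000040296, GRCm38 chromosome 4, 40203773 to 40239828, minus strand), which encodes the viral RNA sensor RIG-I, ranged from 18.6 to 31.5 CPM (median 26.0) in GFP and from 28.8 to 48.0 CPM (median 34.1) in TGFB1 microglia. All 7 TGFB1 libraries lay above the GFP mean of 25.0 ± 4.75 CPM, and the lowest of them lay below the highest GFP library (log2 fold change 0.50, SE 0.14, 95% interval 0.22 to 0.79, adjusted p = 0.193). Dhx58 (ENSMUSG00000017830, chromosome 11, 100694884 to 100704271, minus strand) ranged from 18.7 to 27.6 CPM (median 24.2) and from 25.9 to 39.9 CPM (median 31.9), again with all 7 above the GFP mean (0.44, SE 0.14, interval 0.16 to 0.72, adjusted p = 0.312). The third member of the family, Ifih1 (MDA5), was at 18.03 ± 2.82 and 19.0 ± 6.32 CPM (n = 7 each, 0.07, SE 0.19, adjusted p = 0.976). Across all alternatives that were run, the adjusted p of Ddx58 stayed between 0.109 and 0.998 and that of Dhx58 between 0.209 and 0.997.

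The 4 genes of the ISG15 system and ligases gave 3 positive values and 1 negative. Isg15 ranged from 2.98 to 5.95 CPM in GFP and from 2.59 to 8.71 CPM in TGFB1 microglia, with the GFP values inside the TGFB1 range (log2 fold change 0.29, SE 0.30, adjusted p = 0.923). Usp18, the protease that removes ISG15 and damps the receptor, was at 0.50 (SE 0.29, adjusted p = 0.837), with the TGFB1 mean raised by replicate 2 at 22.1 CPM. Trim30a and Trim25, a ligase that activates RIG-I, were at 0.05 and -0.11.

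Oasl2 (ENSMUSG00000029561, chromosome 5, 114896936 to 114912234, plus strand) had the largest fold change of the 28. It ranged from 4.31 to 11.6 CPM (median 7.14) in GFP and from 4.36 to 32.3 CPM (median 11.7) in TGFB1 microglia, and 6 of 7 TGFB1 libraries exceeded the GFP mean (log2 fold change 0.94, SE 0.34, interval 0.22 to 1.66, adjusted p = 0.517). With no filter on low counts its adjusted p was 0.0355, the only fit in which a gene of the programme was called in this comparison, and over all its alternatives it ran from 0.0355 to 0.998. Its value was 0.62 without TGFB1 replicate 7 (adjusted p = 0.838). Oas1a, the other tested OAS gene, was at -0.05 (SE 0.20), and 57.6% of its 50-base sequences also occur in Oas1g, so reads of these genes could be split.

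Of the IFIT genes, whose products bind foreign RNA, 2 of 4 were tested in microglia. Ifit2 ranged from 5.21 to 21.3 CPM (median 9.89) in GFP and from 7.39 to 53.9 CPM (median 10.8) in TGFB1 microglia (log2 fold change 0.51, SE 0.50, adjusted p = 0.922). Ifit3 ranged from 1.86 to 11.8 CPM (median 7.19) and from 4.36 to 23.7 CPM (median 8.65), at 0.45 (SE 0.46, adjusted p = 0.923). In both genes 1 library, TGFB1 replicate 2, held the highest value, and the medians of the groups were close. Of the 7 antiviral effectors tested, 3 were above 0 and 4 below, and none had an unadjusted p under 0.05. They ran from -0.14 for Mx2, a GTPase gene annotated as a polymorphic pseudogene, to 0.26 for Ifitm3. Eif2ak2, the RNA-activated kinase PKR, had nearly equal means of 20.2 ± 3.14 and 20.0 ± 4.12 CPM (n = 7 each).

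Among the other induced genes, Ifi27l2a (ENSMUSG00000079017, chromosome 12, 103442167 to 103443680, minus strand) ranged from 36.6 to 47.7 CPM (median 39.6) in GFP and from 38.8 to 83.9 CPM (median 49.7) in TGFB1 microglia. Replicates 7 and 8, at 72.2 and 83.9 CPM, stood above the other 5 TGFB1 libraries, which reached 49.7 CPM (log2 fold change 0.43, SE 0.14, interval 0.13 to 0.73, adjusted p = 0.411). Ifi35 had the lowest fold change of the 28, with 47.7 to 64.7 CPM (median 49.5) in GFP and 37.8 to 55.4 CPM (median 48.0) in TGFB1 microglia (-0.19, SE 0.11, adjusted p = 0.813). A share of 16.8% of the Ifi35 exon bases lies in exons of Gm11626, so its reads could be split.

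**Figure D3:**
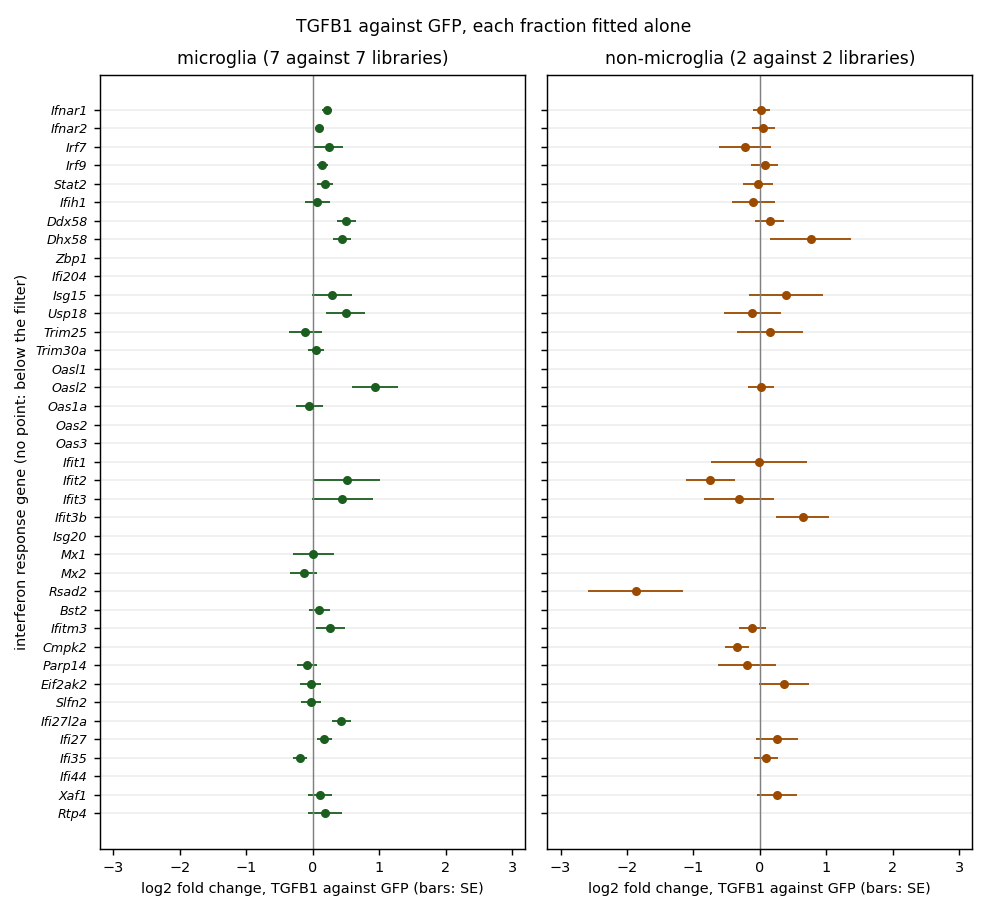
Log2 fold change of TGFB1 against GFP for the genes tested in microglia (left, 28 genes) and in non-microglia (right, 24 genes), ordered by role, with bars for the standard error. No gene passed in either panel, microglial values run from -0.19 to 0.94, and Rsad2 in non-microglia lies farthest from 0.

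Libraries of one group differed in how many of the genes they held at the highest or lowest level. Within the TGFB1 microglia, replicate 2 held the highest level for 14 of 37 genes (37.8%) and replicate 7 for 11 (29.7%), against 16.1% and 13.1% of all 15321 genes tested, and the median gene stood 0.32 and 0.33 log2 units above its group mean in these 2 libraries, against 0 and -0.01 for all genes. In the other 5 TGFB1 libraries that median ran from -0.12 to -0.03. For 9 of all 39 genes (Cmpk2, Ifi204, Ifit2, Ifit3, Ifitm3, Irf7, Oas3, Oasl1 and Usp18) replicates 2 and 7 were the highest pair of the 7. The share of all genes with this pair highest was not counted, so the count cannot be judged. Cmpk2, Ifi204, Oas3 and Oasl1 were below the filter in microglia. Ifit1 illustrates the spread, with 18.9 CPM in replicate 2, 12.6 in replicate 6 and none in replicate 3. Within the GFP microglia the same replicate numbers were low: replicate 2 held the lowest level for 13 of 37 genes (35.1%) and replicate 7 for 12 (32.4%), against 19.0% and 10.5% of all genes, with medians of -0.14 and -0.13, against 0.03 and 0.01 for all genes. The labels give no meaning to the numbers. The 4 libraries share a high number of genes with a count and Xist RNA, also found in replicate 8, and the part of these features in the pattern was not tested.

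The values of single genes were also computed without TGFB1 replicates 2 and 7, and without replicates 2 and 7 of both treatments. Both settings were chosen after seeing the data. Irf7 turned from 0.24 to -0.05 and -0.20, and Stat2 in the second case to -0.0006. Oasl2 was at 0.48 and 0.59. Ddx58 remained at 0.47 and 0.39, Dhx58 at 0.41 and 0.37, and Ifi27l2a at 0.42 and 0.46, still with no call (adjusted p from 0.522 to 0.786). Both settings kept TGFB1 replicate 8, the highest library for Ifi27l2a. With 1 library left out in turn, the Ifi27l2a value ran from 0.30 to 0.49. In the 6 libraries with Xist RNA the median log2 fold change of the tested genes was 0.24, and in the 8 with Y-linked RNA it was 0.06. Most of those with Xist RNA are replicates 2 and 7, so this split largely repeats the pattern above. The difference between the 2 medians was not tested. Markers of monocytes and perivascular macrophages (7 genes) summed to 11.98 to 31.8 CPM in GFP and 17.1 to 66.2 CPM in TGFB1 microglia, and a lymphocyte list of 6 genes reached 3.196 CPM. A list of 5 plasmacytoid dendritic cell genes summed to 1420 to 1925 CPM in GFP and 1537 to 1913 CPM in TGFB1 microglia. It holds Siglech, which microglia also express (1029 CPM as the GFP mean), and Ly6d, which had no count in any group. Its other genes are Bst2, itself 1 of the 39 genes, Irf8 and Tcf4. In GFP retinas Irf8 was higher in microglia (log2 fold change 8.84) and Tcf4 lower (-1.73). The sum thus does not mark plasmacytoid dendritic cells alone. The part of these cells in the values was not tested.

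**Figure D4:**
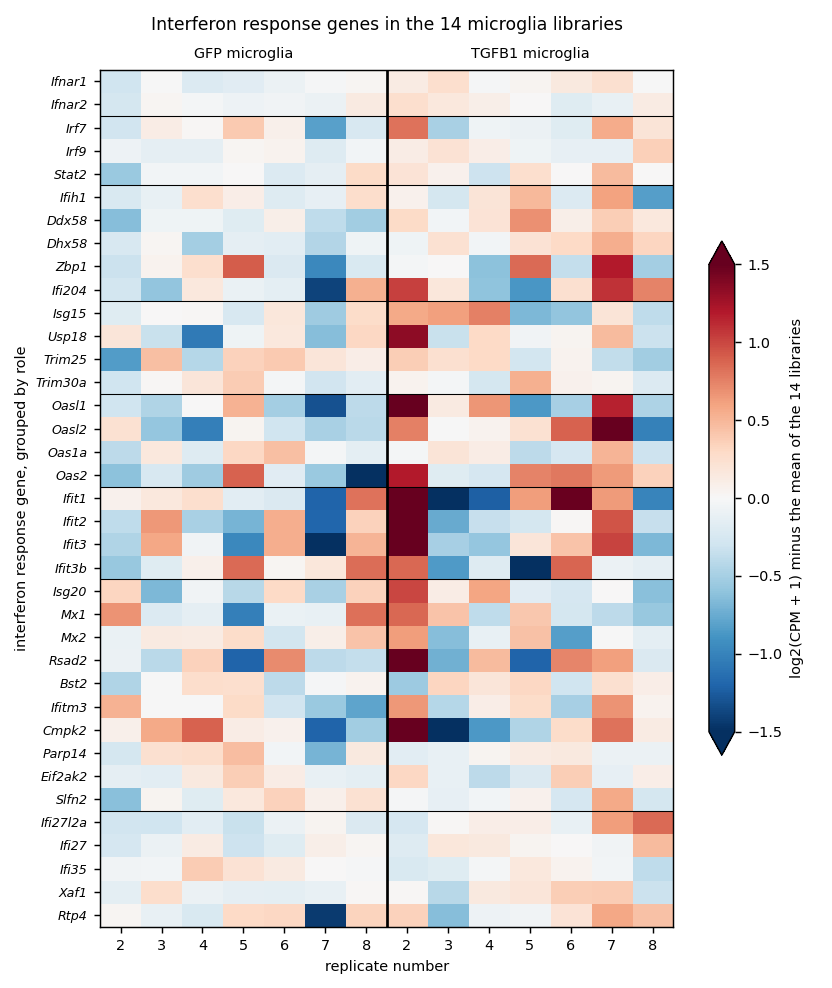
Deviation of log2(CPM + 1) from the mean of the 14 microglia libraries for the 37 genes tested in the fit of all libraries, by replicate number within GFP (left) and TGFB1 (right) microglia. Of the TGFB1 libraries, replicates 2 and 7 hold the highest level of 14 and 11 genes; of the GFP libraries, replicates 2 and 7 hold the lowest level of 13 and 12.

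In non-microglia the same comparison rested on 2 libraries a group. None of the 24 genes tested passed, where 0.338% of all 13598 genes tested were called higher and 0.0515% lower. There were 13 positive and 11 negative values, with a median log2 fold change of 0.02 against -0.0006 for all genes, and 1 gene, Rsad2, had an unadjusted p under 0.05. There were 4 genes (Xaf1, Dhx58, Eif2ak2 and Ifit3b) that were higher in both TGFB1 libraries than in both GFP libraries and 4 (Irf7, Rsad2, Cmpk2 and Ifit2) that were lower, against 17.5% and 18.9% of all genes tested. The intervals were wide: those of 11 of the 24 genes reached a log2 fold change of 1 or -1. The other 15 genes were below the filter.

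Rsad2 (ENSMUSG00000020641, chromosome 12, 26442746 to 26456452, minus strand) was at 3.1995 and 5.34 CPM in the GFP and 1.29 and 0.966 CPM in the TGFB1 non-microglia, on 11, 16, 4 and 3 counts (log2 fold change -1.86, SE 0.71, 95% interval -3.34 to -0.39, adjusted p = 0.487). Its neighbour Cmpk2 (ENSMUSG00000020638, chromosome 12, 26469204 to 26479837, plus strand), whose start lies 12752 bases away, was at 58.2 and 48.4 CPM and then at 46.2 and 37.3 CPM (-0.35, SE 0.18, adjusted p = 0.685). Ifit2 was at 11.1 and 12.3 CPM against 7.75 and 6.12 CPM (-0.74, SE 0.37, adjusted p = 0.667). In these 3 genes both TGFB1 libraries were low. Ifit3b ran the other way, from 6.98 and 5.34 CPM to 9.37 and 9.98 CPM (0.65, SE 0.40, adjusted p = 0.802), while Ifit3 was at 3.49 and 6.67 CPM and at 3.88 and 4.18 CPM (-0.31, SE 0.53). Since 51.2% of the 50-base sequences of Ifit3 also occur in Ifit3b, reads could be split between them. Dhx58 was at 3.1995 and 1.67 CPM against 5.17 and 3.22 CPM (0.76, SE 0.61, adjusted p = 0.879) and Eif2ak2 at 6.69 and 9.005 CPM against 10.01 and 9.98 CPM (0.36, SE 0.38, adjusted p = 0.925). The receptors and factors stayed within 0.22 log2 units of 0: Ifnar1 at 0.02, Ifnar2 at 0.05, Stat2 at -0.03, Irf9 at 0.08 and Irf7 at -0.22. Markers of other cells moved with the treatment in this fraction: 4 of 5 bipolar cell genes were called higher in TGFB1 non-microglia and the 3 tested erythroid genes lower, the latter list at 648 and 724 CPM in GFP and 263 and 274 CPM in TGFB1 libraries. The 5 cone genes summed to 1487 and 1744 CPM and to 705 and 1046 CPM, but none of them passed (adjusted p from 0.119 to 0.988) and Opn1mw was at 0.16. The part of these cells in the values of the interferon genes was not tested.

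**Figure D5:**
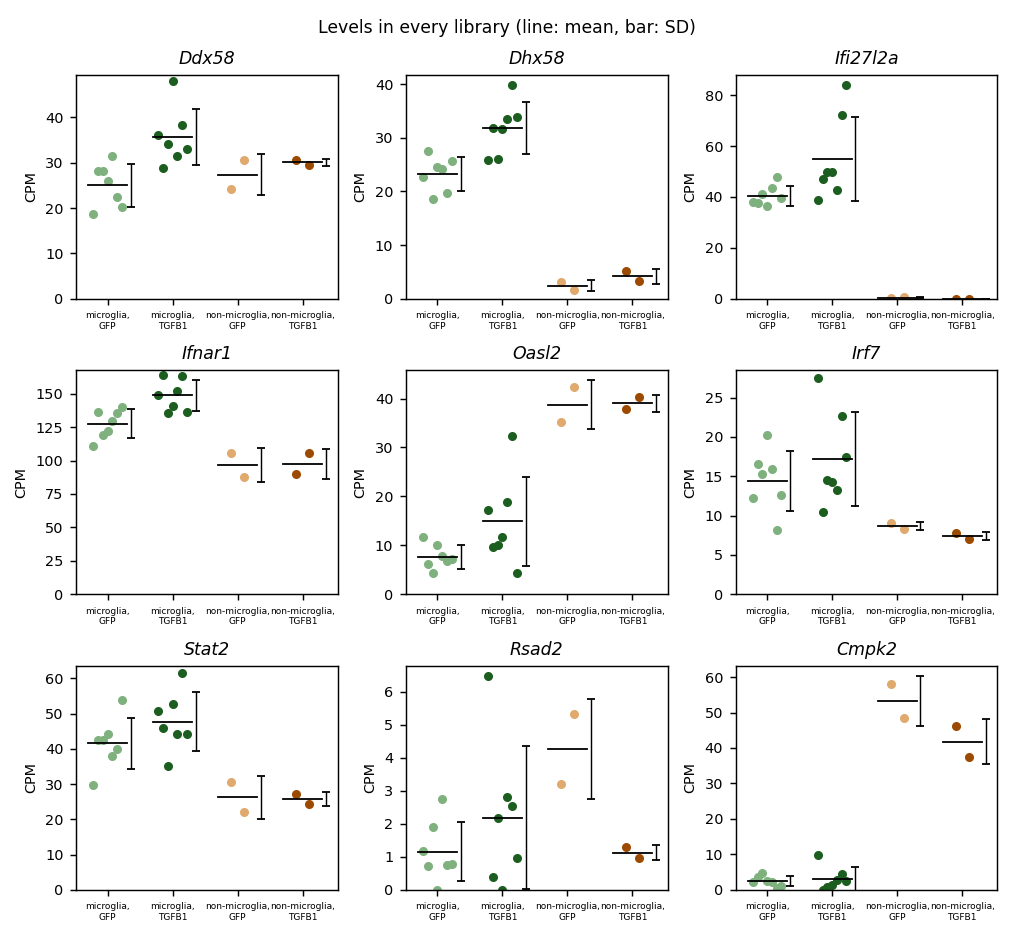
CPM of 9 of the genes in each of the 18 libraries, by group, with a line at the group mean and a bar for 1 SD. For Ddx58, Dhx58 and Ifnar1 all 7 TGFB1 microglia lie above the GFP mean with overlapping ranges, the highest Oasl2 microglia library is TGFB1 replicate 7 at 32.3 CPM, and Cmpk2 and Oasl2 are highest in non-microglia.

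The difference between the treatment effects of microglia and non-microglia was tested directly in the fit of all 18 libraries. None of the 37 genes passed (adjusted p of 0.99995 for each), against 0% of the 15321 genes called with a higher and 0.0131% with a lower effect in microglia. Trim30a, Rsad2 and Ifi27l2a had an unadjusted p under 0.05. For Rsad2 the difference was 2.72 (SE 1.24, unadjusted p = 0.0386), from a microglial group mean of 1.16 ± 0.904 CPM in GFP and 2.19 ± 2.17 CPM in TGFB1 retinas (n = 7 each), both near the floor. For Trim30a it rested on 7 and 7 against 2 and 2 counts in the non-microglia, and for Ifi27l2a on 1 and 2 against none. The Ddx58 difference was 0.37 (SE 0.28).

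The interferon genes themselves had very few counts. The 21 ligand genes of types I, II and III had 6 counts in all GFP microglia and 19 in all TGFB1 microglia. They had 3 in the GFP and 2 in the TGFB1 non-microglia, and Ifnb1 and Ifng had none in any library. Sequence shared among the ligand genes was not examined, so their reads could be split or not counted. Including the 21 ligand genes, 96 further genes of the pathway were followed. In microglia 54 of them were tested and none passed; 35 were above 0 and 19 below, with a median log2 fold change of 0.03. The smallest p values were those of Lgals3bp, a secreted glycoprotein gene, at 230.3 ± 16.2 CPM in GFP and 307 ± 53.8 CPM in TGFB1 microglia (0.41, SE 0.09, adjusted p = 0.0505), and of Gbp2, a GTPase gene induced by interferons, at 4.94 ± 2.19 and 9.04 ± 2.37 CPM (0.88, SE 0.28, adjusted p = 0.343). In non-microglia 45 were tested and none passed, with 16 above 0 and 29 below; the smallest p values were those of Psmb9, an immunoproteasome subunit gene (-1.01, adjusted p = 0.613), and Stat3 (0.19, adjusted p = 0.640). Between the fractions, 41 of 59 were higher and 7 lower in microglia of GFP retinas, and 45 higher and 6 lower in TGFB1 retinas (69.5% and 11.9%, and 76.3% and 10.2%, beside the shares of all genes given above). The 9 sensors and adaptors tested and the 6 inhibitors tested were all higher in microglia in both treatments. Only 45 of the 59 pass the filter in non-microglia alone, and the others entered through counts in microglia, which largely set their direction.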

How the data were processed

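RNA of sorted microglia and non-microglia from 18 retinal samples was measured with Smart-Seq2, which has no molecular identifiers. Floors and the intervals of count ratios cover counting error only. The authors deposited 1 table of raw counts per gene; STAR, featureCounts, DESeq2 and GRCm38.p6 are named in the submitters' processing notes. Versions, annotation release and strand setting were not given in the sources used here. Of 54532 gene IDs, 54495 matched GENCODE M21 for symbols, positions and exon lengths, and 37 did not. CPM used TMM scaling over all 18 libraries. Comparisons used the edgeR 4.0.16 quasi-likelihood F test in R 4.3.3 (TMM, filterByExpr, robust), adjusted over all genes tested, with a threshold of 0.05. Each treatment comparison was fitted on its own fraction; the fraction contrasts and the difference of effects were fitted on all 18 libraries. Intervals of fold changes are 95% intervals from the edgeR fit and include the spread between libraries. The test was run on simulated data with known changes. Alternatives were other size factors, no filter, no robust dispersion, DESeq2 1.42.0, limma 3.58.1 voom, leaving out each library, a replicate block, a fit of all libraries, and splits or a term by Xist and Y-linked RNA; leaving out replicates 2 and 7, and a term for a code letter in the column names, were added after seeing the data.

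The genes and lists were chosen with earlier results of these data known. Values are given in full for the 6 tested genes with the smallest p in each treatment comparison, the receptors and transcription factors, the 3 genes with the highest level per kilobase in each fraction, and those with the most extreme contrast between fractions; other genes were named by role. Libraries of a group may or may not be separate animals, so the p-values measure the spread between these samples, which may be technical. All 44 pairs of libraries within groups differed by more than sampling noise (chi-square per degree of freedom 2.34 to 12.9), and none was treated as a duplicate.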

Additional observations from a re-analysis of the deposited data

Results flagged for a closer look

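Among 56 groups of 7 microglia libraries tested (28 genes in each treatment), 5 held a highest library whose gap to the next, as a share of the group's range, exceeded Dixon's critical value, and chance flags about 1 in 20 groups. In TGFB1 microglia, replicate 2 held 53.9 CPM of Ifit2 (next 26.3) and 22.1 CPM of Usp18 (next 11.6). Replicate 5 held 99.9 CPM of Trim30a (next 72.1), and replicate 7 held 46.4 CPM of Slfn2 (next 32.4). In GFP microglia, replicate 3 held 14.3 CPM of Xaf1, a gene whose product binds the apoptosis inhibitor XIAP (next 11.9).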

How the results depend on the processing

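No gene of the programme was called in either treatment comparison in any fit that left out 1 library, nor with the replicate block, DESeq2 or limma voom; with no filter on low counts 1 was called higher in microglia (Oasl2, 0.93). The median log2 fold change in microglia ran from 0.11 to 0.19 without 1 library, and in non-microglia from 0.01 to 0.19 (0.02 with all 4 libraries); the non-microglia median was -0.03 in the fit of all 18 libraries and -0.02 with no filter. Irf7 in microglia was -0.38 in libraries with Y-linked RNA, -0.05 without TGFB1 replicates 2 and 7, and -0.20 without replicates 2 and 7 of both treatments, where Stat2 was -0.0006. Ifi35 between fractions of TGFB1 retinas was -0.10 with other size factors, -0.01 with no filter and -0.10 with DESeq2, and ran from -0.02 to 0.07 without 1 library. In non-microglia, leaving out 1 library gave Ifnar1 -0.10 to 0.16, Ifnar2 -0.01 to 0.12, Stat2 -0.23 to 0.23 and Irf9 -0.22 to 0.43. The cause was not tested. Same-numbered microglia libraries correlated at -0.12 to 0.22 and non-microglia at -0.07, and the main fits did not pair them. With 2 libraries a group the non-microglia correlation cannot decide this. The same microglia numbers carried Xist RNA in both treatments, and replicates 2 and 7 had many genes with a count in both. The numbers may thus mark something shared, which was not tested. With the replicate block 41 genes were higher and 19 lower in microglia (26 and 8 without), and 89 and 20 in non-microglia (46 and 7 without). Without 1 library, 10 to 26 genes were called higher and 5 to 14 lower in microglia, and 22 to 87 and 6 to 33 in non-microglia.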
